A study of Homo sapiens with 6 samples.

Results

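The nuclear genes of mitochondrial oxidative phosphorylation were followed in U87 cells, an established human glioblastoma line, after retroviral silencing of Caspase-8. The genes were taken by symbol: names that start with NDUFA, NDUFB, NDUFC, NDUFS, NDUFV, UQCR or ATP5, the 4 SDH subunit genes, and names that start with COX4, COX5, COX6, COX7 or COX8. The rule matched 96 of the 23290 genes in the deposited expression table, and 2 pseudogenes, ATP5EP2 and UQCRBP1, were left out, so 94 genes remained. By complex these were 37 subunit genes of complex I, 4 of complex II, 9 of complex III, 18 of complex IV and 16 of complex V, beside 5 assembly factors of complex I and 5 further genes. The 2 groups were shC8 (3 libraries of cells infected with a retroviral vector against Caspase-8) and shCTR (3 libraries of cells infected with a retroviral scramble vector), and both were grown in DMEM with 10% serum. The sources used here give neither the hairpin sequence nor how cultures were kept apart, so the p-values rest on variation among the 6 libraries, which may be technical. The table holds FPKM, which are fragments scaled by transcript length and by library total.

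Oxidative phosphorylation passes electrons from NADH and succinate along protein complexes of the inner mitochondrial membrane to oxygen. Complex I oxidises NADH, complex II (succinate dehydrogenase) oxidises succinate, complex III passes electrons from ubiquinol to cytochrome c, and complex IV passes them to oxygen. Complexes I, III and IV pump protons, and complex V, the ATP synthase, uses the proton gradient to make ATP. Most subunits are encoded in the nucleus and a few in mitochondrial DNA, whose genes were not analysed here. Glioblastoma cells are known for high glycolysis, and respiration in them varies with the cells and their culture.

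CASP8 had 4.39, 4.46 and 4.44 FPKM in shC8 1, 2 and 3, against 15.1, 14.9 and 13.4 FPKM in shCTR 1, 2 and 3, which left 30.6% of the control level (log2 change of -1.51, SE 0.0705, limma adjusted p = 0.000206; exact two-sided permutation p = 0.1, the smallest that 3 against 3 libraries allow). VIM, CD44, NES and EGFR, 4 of the 8 markers listed for the line, were above 1 FPKM, while GFAP, S100B, SOX2 and OLIG2 stayed below it in every library. Of these, CD44 was lower in shC8, with 253, 259 and 293 FPKM in shC8 1, 2 and 3, against 370, 363 and 366 FPKM in shCTR 1, 2 and 3 (change -0.45, adjusted p = 0.0131). NES was higher, with 9.30, 12.2 and 11.7 FPKM in shC8 1, 2 and 3, against 5.80, 8 and 7.05 FPKM in shCTR 1, 2 and 3 (change 0.60, adjusted p = 0.0293). The NES call held without shC8 1 or shCTR 2 and ended without any of the other 4 libraries (adjusted p up to 0.0962) and with no filter on low values (0.0710). All 4 endothelial markers and all 4 heart and muscle markers were below 1 FPKM in every library. Of 6 markers of microglia and blood, HBB, AIF1 and CD3E were listed at 0 and CSF1R reached 1.56 FPKM, and the sum of the 6 lay between 1.36 and 1.88 FPKM in shC8 and between 0.967 and 1.44 FPKM in shCTR. Of 3 epithelial markers, EPCAM reached 1.42 and KRT8 1.11 FPKM, and their sum lay between 1.41 and 2.03 FPKM in shC8 and between 1.48 and 1.603 FPKM in shCTR. Of 5 neuronal markers, SNAP25, GAD1 and MAP2 were above 1 FPKM, RBFOX3 and SYP were not, and the sum of the 5 lay between 19.7 and 20.9 FPKM in shC8 and between 21.5 and 24.0 FPKM in shCTR. The part of these markers in the results was not tested. Absolute depth is unknown, and the step size of the lowest values put the other 5 libraries at 1.08 to 1.21 times the depth of shCTR 1. Columns summed to 516634 FPKM in shC8 1 and to between 489055 and 499924 FPKM in the other 5 libraries.

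Most genes of oxidative phosphorylation kept nearly the same level in shC8 and shCTR cells, and 5 passed the test. NDUFA2 (complex I), UQCR10 (complex III) and NDUFA4 (complex IV) were higher in shC8. NDUFAF2 (complex I assembly) and ATP5G2 (complex V) were lower, at 60.5% and 61.9% of the shCTR mean. In RNA of whole cultures, a lower level in every cell and fewer cells with the transcript cannot be told apart. The test used log2(FPKM + 1), on which changes of low genes are understated, over the 11598 genes that averaged 1 FPKM or more, and a gene was called at a limma p under 0.05 after Benjamini-Hochberg adjustment over all of them. Of the 94 genes, 83 entered the test and 11 had lower means. The 5 calls were 6.02% of the 83, with 3 higher and 2 lower, beside 12.1% of all tested genes (7.14% higher, 4.94% lower). With median-of-ratios scaling, which moved the median change of all genes to -0.01, from 0.04 without it, 2 were higher and 5 lower. All genes then split into 621 higher and 820 lower, against 828 and 573 without it.

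The changes were small. Across the 83 genes the log2 change lay between -0.71 and 0.38 with a median of 0.06, beside a median of 0.04 for all tested genes, and 53 changes (63.9%) were positive and 30 negative, beside 57.9% positive among all tested genes. With median-of-ratios scaling 10 of the 83 changes turned sign, and without shC8 1 13 did, none of them called in either fit. Of the 83, 69 had changes within 0.25 on the log2 scale in either direction. The 95% interval lay within 0.5 in either direction for 72, and standard errors lay between 0.0603 and 0.249. The groups did not overlap for 27 of 83 genes (32.5%), 17 higher and 10 lower in shC8, beside 34.8% of all tested genes. No label states that replicate numbers pair the libraries, and the pairing was taken from these same values. Deviations from the group means correlated at 0.397, 0.266 and 0.291 between same-numbered libraries, and at -0.32 to 0.0378 between unlike numbers. With the number as a block 10 genes were higher and 8 lower. That was 21.7% of the 83, beside 26.6% of all tested genes.

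**Figure D1:**
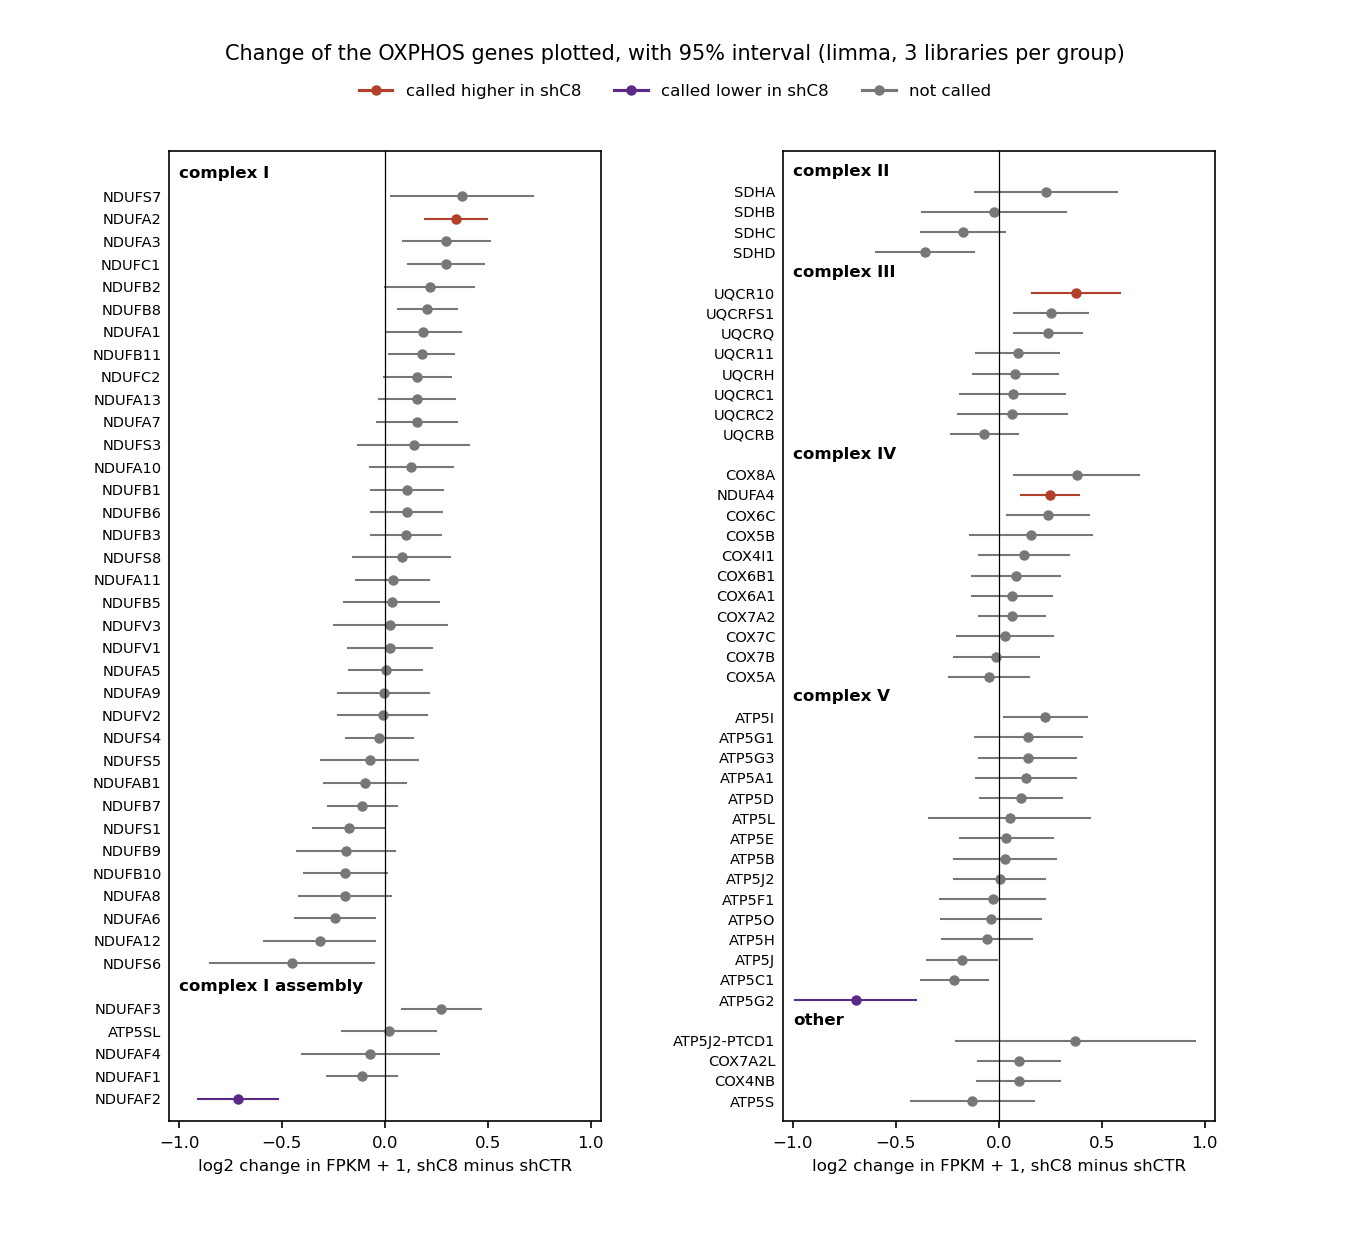
Log2 change in FPKM + 1 (shC8 minus shCTR) for 82 of the 83 tested genes, grouped by complex, with 95% intervals from limma on 3 libraries per group; red and purple mark genes called higher and lower in shC8. The points of NDUFAF2 and ATP5G2 stand at -0.71 and -0.70, apart from the others of their complexes, and 68 of the 82 points lie within 0.25 of 0.

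The level of the set differed between libraries, and shC8 1 stood highest. In shC8 1 the median deviation of the 83 genes from their own means over 6 libraries was 0.17 on the log2 scale, against -0.08 in shC8 2 and -0.01 in shC8 3, and 0.04, -0.07 and -0.01 in shCTR 1, 2 and 3. The summed FPKM of the 83 genes was 11772, 9771 and 10234 in shC8 1, 2 and 3 (mean 10592 ± 1047, SD, n = 3), against 10597, 9995 and 10362 in shCTR 1, 2 and 3 (mean 10318 ± 303). The shC8 sums lay on both sides of the shCTR sums. The 77 cytosolic ribosomal protein genes, another group of short and abundant mRNAs, had median deviations of 0.14, -0.16 and -0.07 in shC8 1, 2 and 3 and of 0.12, -0.03 and 0.01 in shCTR 1, 2 and 3. The fit was also run without shC8 1. Then 11 of the 83 genes were lower, among them ATP5C1, ATP5G2, NDUFA12, NDUFA6, NDUFAF2, NDUFS1, NDUFS6 and SDHD. In the same fit 2 were higher (NDUFA2 and UQCR10), beside 5.74% of all genes lower and 6.14% higher. The 11 were 13.3% of the 83, and the median change of the 83 was then -0.03. The deposited column names carry numbers in a lower range (shC8 1, shCTR 1 and shCTR 3) and an upper range (shC8 2, shC8 3 and shCTR 2). Each range holds too few libraries for values of its own, with shC8 1 as the only shC8 library of the lower range and shCTR 2 as the only shCTR library of the upper. The part of shC8 1 in the results can therefore not be told apart from that of the range. With a term for these ranges in the fit, 5 of the 83 genes were higher (6.02%) and 2 lower (2.41%, ATP5G2 and NDUFAF2). Of all tested genes, 10.7% were then called in either direction.

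**Figure D2:**
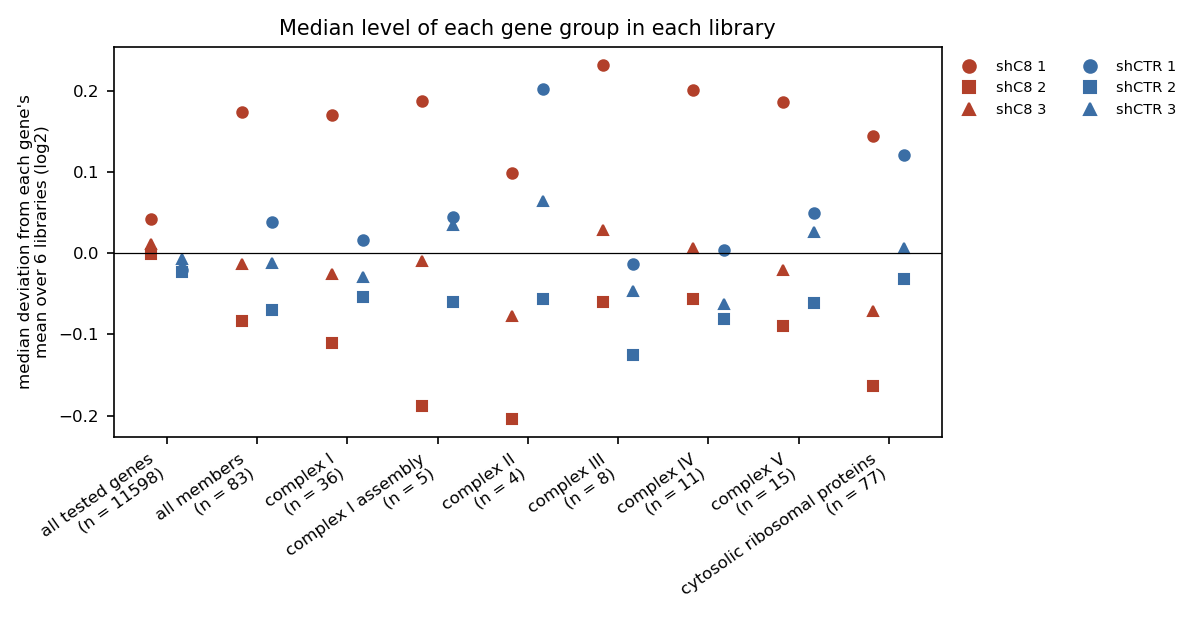
Median deviation of each gene group from its genes' means over 6 libraries (log2 of FPKM + 1), one point per library, with shC8 in red and shCTR in blue and the replicate number given by the marker. The shC8 1 point is the highest for all 83 genes together, at 0.17, and the shC8 2 point is the lowest, at -0.08.

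Complex I, the NADH dehydrogenase, showed 1 higher and no lower gene among 36 tested subunits, and 11 of the 36 (30.6%) had an unadjusted limma p under 0.05, beside 29.7% of all tested genes. Its median change was 0.04 (-0.02 with median-of-ratios scaling and -0.04 without shC8 1), and its summed FPKM was 3690 ± 350 in shC8 and 3634 ± 93.8 in shCTR (SD, n = 3 each). Levels ran between 19.4 FPKM for NDUFA10 and 252 FPKM for NDUFS8 as means over 6 libraries. None of the 7 core subunits, which carry the flavin and the iron-sulfur clusters, was called, and 1 of them had an unadjusted p under 0.05.

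NDUFA2, an accessory subunit with a thioredoxin-like fold, had 36.7, 37.9 and 35.2 FPKM in shC8 1, 2 and 3, against 26.9, 29.6 and 29.2 FPKM in shCTR 1, 2 and 3. The groups did not overlap, and shC8 was 1.28 times shCTR by the means (log2 change 0.35, SE 0.0646, adjusted p = 0.0172). The call ended without shCTR 1 (adjusted p = 0.0542) or without shC8 2 (0.0642). NDUFA2 lies on the minus strand of chromosome 5 from 140638740 to 140647785 (GRCh38), where its span overlaps that of TMCO6 by 5982 bases and of IK by 728 bases on the other strand. The sources used here do not say whether reads were counted by strand. TMCO6 changed by -0.12 (adjusted p = 0.593) and IK by -0.10 (adjusted p = 0.376).

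Among core subunits, NDUFS1, which carries iron-sulfur clusters and receives electrons from the NADH-binding module, had 59.8, 50.1 and 53.4 FPKM in shC8 1, 2 and 3, against 60.9, 61.4 and 61.8 FPKM in shCTR 1, 2 and 3. All 3 shC8 values lay below the shCTR values, shC8 1 only just, and the change of -0.17 was not called (SE 0.0751, adjusted p = 0.172). Without shC8 1 it was called lower (adjusted p = 0.0484), the only one of the 14 alternatives where it was. NDUFV1, the subunit that binds flavin and NADH, had 96.8, 77.8 and 82.7 FPKM in shC8 1, 2 and 3, against 84.5, 81.3 and 85.9 FPKM in shCTR 1, 2 and 3, so the groups overlapped (change 0.03, SE 0.0877, adjusted p = 0.879). NDUFS7 had the highest change among the core subunits, 0.37, and it was not called (SE 0.149, adjusted p = 0.142). Its FPKM was 60.8, 40.0 and 44.7 in shC8 1, 2 and 3 and 34.9, 34.7 and 40.4 in shCTR 1, 2 and 3.

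The lowest changes among accessory subunits belonged to NDUFS6 and NDUFA12. NDUFS6, which binds zinc, had 141.6, 89.6 and 97.6 FPKM in shC8 1, 2 and 3, against 160.8, 129.8 and 152.9 FPKM in shCTR 1, 2 and 3, with only shC8 1 inside the shCTR range (change -0.45, SE 0.171, adjusted p = 0.127; 0.0190 with the replicate block). NDUFA12 had 80.8, 60.7 and 68.1 FPKM in shC8 1, 2 and 3, against 96.4, 83.1 and 81.2 FPKM in shCTR 1, 2 and 3, without overlap (change -0.32, SE 0.116, adjusted p = 0.118; 0.0138 with the block). Both joined the called genes when shC8 1 was left out, as given above. With the block, NDUFA6 was also lower, and NDUFB8, NDUFB11 and NDUFC1 were higher. Of the 36 subunit genes, 16 (44.4%) were higher in shC8 in all 3 same-numbered pairs and 10 (27.8%) were lower in all 3, beside 36.3% and 24.5% of all tested genes.

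NDUFB4, an accessory membrane subunit of complex I, stood out among the subunits by its level. It had 0.116, 0.481 and 0.212 FPKM in shC8 1, 2 and 3 and 0.0921, 0.445 and 0 FPKM in shCTR 1, 2 and 3. The next lowest subunit of the complex, NDUFA10, averaged 19.4 FPKM. The reference annotation holds 12 pseudogenes named after NDUFB4, and the sources used here do not say how reads of near-identical copies were shared, so its value is uncertain. COX6C has 17 such copies, NDUFA5 12, and ATP5G1, ATP5F1, ATP5A1 and COX6B1 7 each, and the same limit holds for them.

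NDUFAF2, an assembly factor of complex I also known as mimitin and B17.2L, had the largest change in size of the 83 genes. It had 52.8, 44.9 and 48.7 FPKM in shC8 1, 2 and 3, against 87.6, 76.5 and 77.9 FPKM in shCTR 1, 2 and 3. The highest shC8 library lay well below the lowest shCTR library, with 48.8 ± 3.96 FPKM in shC8 and 80.6 ± 6.04 FPKM in shCTR (mean ± SD, n = 3). The log2 change was -0.71 (SE 0.0839, adjusted p = 0.00411), and the call held in all 14 alternatives run, with adjusted p between 0.000924 and 0.0239. The protein resembles NDUFA12 and binds an assembly intermediate before NDUFA12 takes its place.

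No other assembly factor of the set was called lower. NDUFAF3 had 29.2, 25.9 and 29.3 FPKM in shC8 1, 2 and 3, against 21.0, 23.7 and 24.6 FPKM in shCTR 1, 2 and 3, and was called higher with the block but not without it (change 0.27, SE 0.0830, adjusted p = 0.0719; 0.0420 with the block). NDUFAF1, NDUFAF4 and ATP5SL (DMAC2 in newer naming) had changes of -0.11, -0.07 and 0.02, none called. Among 9 further assembly factors of complex I whose symbols the rule does not take, none was called, with 1 unadjusted p under 0.05 in each direction and a median change of 0.02.

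NDUFAF2 shares its start region with ERCC8, a DNA repair gene on the opposite strand of chromosome 5, and their annotated starts lie 56 bases apart. ERCC8, chosen after its values were seen, had 11.7, 9.74 and 11.5 FPKM in shC8 1, 2 and 3, against 15.4, 14.5 and 14.7 FPKM in shCTR 1, 2 and 3. The groups did not overlap (change -0.41, SE 0.0817, adjusted p = 0.0222). The call ended in 5 of the 6 fits that left out a library, all but the one without shC8 1, with adjusted p up to 0.0730. The window below (chr5:60944955-60945254, plus strand, RefSeq, GRCh38.p14) is shown because it holds both starts, and capitals mark the 57 bases between them, both starts included.
NDUFAF2: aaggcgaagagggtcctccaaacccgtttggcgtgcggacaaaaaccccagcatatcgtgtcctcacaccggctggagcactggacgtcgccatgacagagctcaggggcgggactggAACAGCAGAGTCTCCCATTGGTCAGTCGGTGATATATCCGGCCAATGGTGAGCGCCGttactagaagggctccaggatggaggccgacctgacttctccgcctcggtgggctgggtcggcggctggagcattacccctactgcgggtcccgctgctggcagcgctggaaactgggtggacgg

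Complex II, which also belongs to the tricarboxylic acid cycle, had no called gene among its 4, and 1 unadjusted p under 0.05. SDHD, a membrane anchor that helps bind ubiquinone, had 36.7, 27.4 and 30.7 FPKM in shC8 1, 2 and 3, against 41.8, 40.6 and 39.2 FPKM in shCTR 1, 2 and 3. The groups did not overlap, with 31.6 ± 4.68 FPKM in shC8 and 40.5 ± 1.29 FPKM in shCTR (mean ± SD, n = 3). The log2 change of -0.36 missed the threshold (SE 0.103, adjusted p = 0.0627) and was called with the replicate block (0.0222), with quantile normalization (0.0400), with median-of-ratios scaling (0.0385) and without shC8 1 (0.0167).

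SDHC, the other membrane anchor, had 16.5, 15.4 and 15.7 FPKM in shC8 1, 2 and 3, against 20.5, 17.3 and 16.5 FPKM in shCTR 1, 2 and 3, with a change of -0.17 (SE 0.0873, adjusted p = 0.229). SDHA, the flavoprotein that oxidises succinate, had 94.0, 76.8 and 104.7 FPKM in shC8 1, 2 and 3, against 70.2, 70.5 and 93.9 FPKM in shCTR 1, 2 and 3, with a change of 0.23 (SE 0.148, adjusted p = 0.338). In SDHA the third library of each group was high and the groups overlapped. SDHB, the iron-sulfur subunit, had 92.1, 61.2 and 71.8 FPKM in shC8 1, 2 and 3, against 84.8, 67.5 and 74.4 FPKM in shCTR 1, 2 and 3, with a change of -0.02 (SE 0.151, adjusted p = 0.938). Changes of the 4 genes had both signs, and SDHD was the one gene of the 4 called in any alternative.

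SDHD starts head to head with TIMM8B, a small import chaperone gene of the intermembrane space, and the annotated genes overlap by 26 bases. On the same strand, the span of the coding gene AP002884.3 overlaps that of SDHD by 33111 bases, and the annotation names 3 pseudogenes after SDHD. The sources used here do not say how reads were shared with them, so the value of SDHD is uncertain to that extent. TIMM8B, a member of the import list fixed for this report, moved the opposite way, with 14.9, 12.8 and 13.2 FPKM in shC8 1, 2 and 3, against 11.04, 9.41 and 11.1 FPKM in shCTR 1, 2 and 3. Its change was 0.34 (SE 0.0899, adjusted p = 0.0484), and the call ended in each of the 6 fits that left out a library (adjusted p up to 0.127). The SDHD window (chr11:112086623-112086922, plus strand, RefSeq, GRCh38.p14) is shown because it holds the starts of this pair with unlike changes. Capitals mark the letters GCGCANG of NRF1 motifs, which overlap on both strands at bases 141 to 150, and the reverse complement of the ETS letters CCGGAAG at 174 to 180. NRF1 and the ETS factor GABP (NRF2) are known as activators of respiratory chain genes.
SDHD: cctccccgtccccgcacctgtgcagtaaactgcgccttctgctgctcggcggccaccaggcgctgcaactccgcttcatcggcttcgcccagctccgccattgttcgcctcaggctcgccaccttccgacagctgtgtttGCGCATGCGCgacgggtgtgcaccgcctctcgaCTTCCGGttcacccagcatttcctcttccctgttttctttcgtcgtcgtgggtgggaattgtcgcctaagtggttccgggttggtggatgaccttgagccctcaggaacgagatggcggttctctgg

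Complex III had 1 higher and no lower gene among 8 tested. Of its 8 changes, 7 were positive (87.5%), beside 57.9% of all tested genes. The median change of complex III was 0.09 (0.04 with median-of-ratios scaling and 0.03 without shC8 1). Its summed FPKM was 947 ± 88.8 in shC8 and 870 ± 34.2 in shCTR (SD, n = 3 each). UQCR10, a small accessory subunit in the membrane, had 118.6, 94.9 and 100.4 FPKM in shC8 1, 2 and 3, against 76.4, 83.0 and 81.2 FPKM in shCTR 1, 2 and 3. All shC8 libraries lay above all shCTR libraries, 1.30 times by the means (change 0.37, SE 0.0914, adjusted p = 0.0396). The call ended without shCTR 1 (0.118), shCTR 2 (0.0845), shCTR 3 (0.0883) or shC8 3 (0.0961), and with no filter on low values (0.0747).

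UQCRFS1, the Rieske iron-sulfur protein, had 182.5, 157.6 and 164.3 FPKM in shC8 1, 2 and 3, against 148.1, 136.5 and 137.4 FPKM in shCTR 1, 2 and 3, without overlap (change 0.25, SE 0.0765, adjusted p = 0.0712). It was called higher with the block (0.0136), with quantile normalization and with the column number term. UQCRQ, another small subunit, was called higher with the block but not without it (change 0.24, SE 0.0710, adjusted p = 0.0674; 0.0494 with the block). UQCRC1, a core protein of the matrix arm, had 93.7, 71.7 and 75.8 FPKM in shC8 1, 2 and 3, against 79.4, 69.9 and 79.6 FPKM in shCTR 1, 2 and 3, with overlap (change 0.07, SE 0.110, adjusted p = 0.721). Of this complex, CYC1 (cytochrome c1) lies outside the symbol rule, and its change of -0.17 was not called (SE 0.128, adjusted p = 0.422). The UQCR10 window (chr22:29767119-29767418, plus strand, RefSeq, GRCh38.p14) is shown as that of the called gene of this complex, and capitals mark the NRF1 letters at bases 243 to 249.
UQCR10: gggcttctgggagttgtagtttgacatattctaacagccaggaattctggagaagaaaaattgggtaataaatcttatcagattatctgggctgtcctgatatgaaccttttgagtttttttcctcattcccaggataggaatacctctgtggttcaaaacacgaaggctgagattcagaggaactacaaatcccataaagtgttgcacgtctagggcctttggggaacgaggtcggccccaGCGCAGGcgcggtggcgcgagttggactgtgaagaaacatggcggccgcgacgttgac

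**Figure D3:**
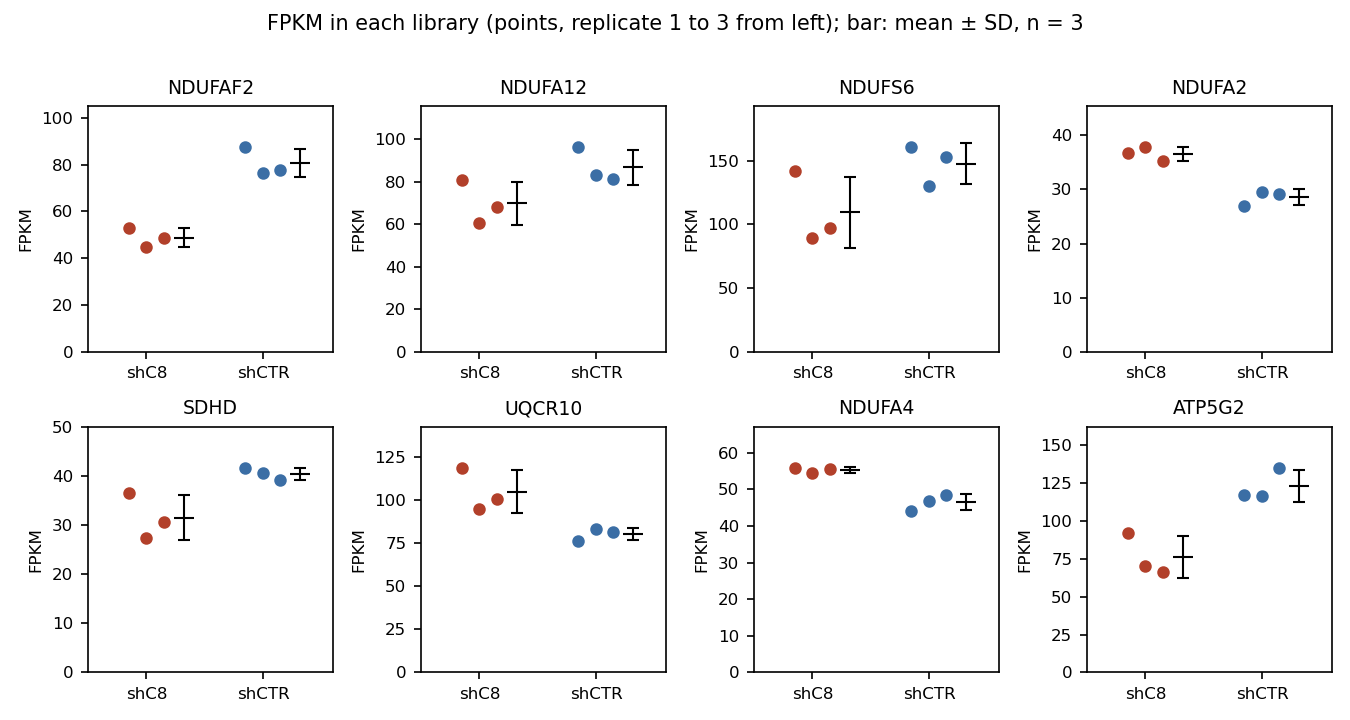
FPKM of 8 genes in each library (points, replicates 1 to 3 from left to right within each group) with mean ± SD, n = 3, and axes that start at 0. The groups are apart for NDUFAF2, where shC8 libraries reach 52.8 and shCTR libraries start at 76.5 FPKM, and overlap for NDUFS6, where shC8 1 has 141.6 and shCTR 2 has 129.8 FPKM.

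Complex IV, cytochrome c oxidase, had 1 higher and no lower gene among 11 tested. Of its 11 changes, 9 were positive (81.8%), beside 57.9% of all tested genes. The median change of complex IV was 0.08 (0.03 with median-of-ratios scaling and 0.01 without shC8 1). NDUFA4, named as a complex I gene and now counted with complex IV (COXFA4 in newer naming), had 55.9, 54.5 and 55.5 FPKM in shC8 1, 2 and 3, against 44.1, 46.9 and 48.5 FPKM in shCTR 1, 2 and 3. The shC8 libraries lay close together above all shCTR libraries (change 0.25, SE 0.0603, adjusted p = 0.0395). This call ended in each of the 6 fits that left out 1 library (adjusted p between 0.0622 and 0.124), with median-of-ratios scaling (0.0630), with the column number term (0.0558) and with no mean trend (0.0544).

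The next 3 subunits were not called. COX4I1, the regulatory subunit that binds ATP, had 277.5, 222.6 and 228.3 FPKM in shC8 1, 2 and 3, against 218.1, 219.3 and 228.4 FPKM in shCTR 1, 2 and 3 (change 0.12, SE 0.0940, adjusted p = 0.422). COX5A, on the matrix side, had 77.2, 68.8 and 65.6 FPKM in shC8 1, 2 and 3, against 76.9, 67.3 and 74.5 FPKM in shCTR 1, 2 and 3 (change -0.05, SE 0.0839, adjusted p = 0.742). COX5B, which binds zinc, had 325.6, 239.8 and 247.1 FPKM in shC8 1, 2 and 3, against 246.2, 220.5 and 257.7 FPKM in shCTR 1, 2 and 3 (change 0.15, SE 0.127, adjusted p = 0.456). In COX4I1 and COX5B the shC8 1 library was the highest of the 6 and the other libraries overlapped.

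Several subunits of complex IV have tissue-specific copies, and in each pair the tissue form was listed below 1 FPKM. A listed 0 can be a failed estimate: SLC25A6, an ADP/ATP carrier gene of most tissues, was also listed at 0 in all 6 libraries. COX4I2 (lung form), COX6A2 (heart and muscle form), COX8C (testis form) and COX7B2 (testis form) were listed at 0 in all 6 libraries. COX7A1, the heart and muscle form, had 0.142 FPKM in shCTR 2 and was listed at 0 in the other 5. COX6B2, the testis form, stayed at or below 0.124 FPKM, and NDUFA4L2, known as a hypoxia-induced gene, reached 0.144 FPKM in shC8 and 0.480 FPKM in shCTR. Their common partners were abundant. COX6A1 had 413, 349 and 397 FPKM in shC8 1, 2 and 3, against 378, 353 and 376 FPKM in shCTR 1, 2 and 3 (change 0.06, SE 0.0841, adjusted p = 0.650). COX6B1 had 244, 201 and 213 FPKM in shC8 1, 2 and 3, against 221, 201 and 197 FPKM in shCTR 1, 2 and 3 (change 0.08, SE 0.0912, adjusted p = 0.575). COX7A2 had 120, 111 and 121 FPKM in shC8 1, 2 and 3, against 118, 113 and 106 FPKM in shCTR 1, 2 and 3 (change 0.06, SE 0.0692, adjusted p = 0.576). For these 3 forms the groups overlapped.

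COX8A had the highest change of the 83 genes, 0.38, and was not called (SE 0.131, adjusted p = 0.102; 0.0983 with the block). It had 161, 123 and 132 FPKM in shC8 1, 2 and 3, against 90.3, 114 and 115 FPKM in shCTR 1, 2 and 3. The groups did not overlap, and shC8 1 was the highest and shCTR 1 the lowest of the 6 libraries.

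Complex V had 1 lower and no higher gene among 15 tested, with a median change of 0.03 (-0.02 with median-of-ratios scaling and -0.05 without shC8 1), and held the most abundant transcripts of the set. ATP5E, the epsilon subunit of the central stalk, averaged 466 FPKM over 6 libraries, and 11 of the 16 genes averaged at least 100 FPKM. The catalytic head was not called. ATP5A1, the alpha subunit, had 363.9, 285.1 and 316.2 FPKM in shC8 1, 2 and 3, against 294.0, 272.2 and 311.4 FPKM in shCTR 1, 2 and 3 (change 0.13, SE 0.103, adjusted p = 0.431). ATP5B, the catalytic beta subunit, had 365.2, 280.9 and 332.7 FPKM in shC8 1, 2 and 3, against 321.9, 297.6 and 333.6 FPKM in shCTR 1, 2 and 3 (change 0.03, SE 0.106, adjusted p = 0.876). Both overlapped between groups. With the replicate block, ATP5C1 (the gamma subunit of the rotor) and ATP5J (coupling factor 6 of the outer stalk) were lower, with changes of -0.22 and -0.18, and ATP5I (subunit e, at the dimer interface) was higher, with 0.23.

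Subunit c forms the proton-carrying ring of the ATP synthase, and 3 genes encode the same mature protein with different import sequences. ATP5G2 on chromosome 12 (minus strand, 53632726 to 53677408, GRCh38) had 91.7, 69.95 and 66.5 FPKM in shC8 1, 2 and 3, against 117.2, 116.5 and 135.0 FPKM in shCTR 1, 2 and 3. The groups did not overlap, with 76.1 ± 13.7 FPKM in shC8 and 122.9 ± 10.5 FPKM in shCTR (mean ± SD, n = 3; change -0.70, SE 0.127, adjusted p = 0.0162). The call ended without shC8 2 (adjusted p = 0.0570) or shC8 3 (0.0575), with changes of -0.64 and -0.61. ATP5G1 had 135.4, 105.7 and 110.1 FPKM in shC8 1, 2 and 3, against 116.5, 96.7 and 103.6 FPKM in shCTR 1, 2 and 3, a change of 0.14 that was not called (SE 0.112, adjusted p = 0.427). ATP5G3 had 47.3, 36.3 and 39.2 FPKM in shC8 1, 2 and 3, against 37.6, 34.8 and 38.2 FPKM in shCTR 1, 2 and 3, also not called (change 0.14, SE 0.101, adjusted p = 0.394).

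Within the subunit c transcripts the share of ATP5G2 was 33.4%, 33.0% and 30.8% in shC8 1, 2 and 3, against 43.2%, 47.0% and 48.8% in shCTR 1, 2 and 3. The shares did not overlap, and no library of either group came between 33.4% and 43.2%. ATP5G1 held the largest share in all 3 shC8 libraries (49.3%, 49.9% and 51.0%), while in shCTR 1, 2 and 3 it held 43.0%, 39.0% and 37.4%, and ATP5G2 led. The 3 genes together came to 234 ± 35.04 FPKM in shC8 and 265 ± 15.3 FPKM in shCTR (SD, n = 3 each), and shC8 1 with 274.5 FPKM lay inside the range of shCTR libraries, which was 248 to 276.8 FPKM. The authors' estimator may have shared reads among the 3 genes and their pseudogenes, of which the annotation names 7 after ATP5G1 and 3 after ATP5G2. The processed pseudogene AC073594.1 also overlaps ATP5G2 by 364 bases on the same strand, so the value of ATP5G2 is uncertain to that extent.

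**Figure D4:**
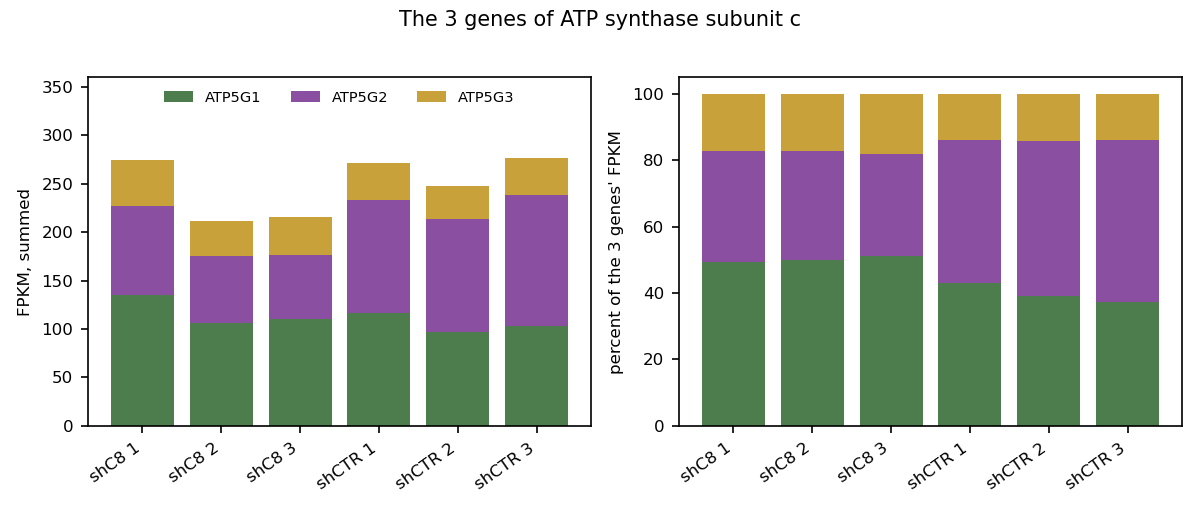
FPKM of the 3 subunit c genes summed in each library (left, stacked bars that start at 0) and each gene's percent of that sum (right), with the 3 shC8 libraries left of the 3 shCTR libraries. ATP5G2 takes 30.8% to 33.4% of the sum in shC8 and 43.2% to 48.8% in shCTR.

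ATP5L, a subunit of the membrane sector, differed between replicate numbers more than between groups. It had 68.3, 90.8 and 98.2 FPKM in shC8 1, 2 and 3, against 66.1, 89.9 and 91.7 FPKM in shCTR 1, 2 and 3. Both replicate 1 libraries were low, and the change of 0.05 was not called (SE 0.168, adjusted p = 0.868).

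The symbol rule also took genes that are not subunits. COX7A2L, which helps join complexes III and IV, COX4NB (EMC8, a protein of the endoplasmic reticulum) and ATP5S (DMAC2L) had changes of 0.10, 0.10 and -0.13, and none was called. The readthrough transcript ATP5J2-PTCD1 averaged 1.32 FPKM over 6 libraries and had the largest standard error of the 83, 0.249. The readthrough NDUFC2-KCTD14, and UQCRHL and ATP5L2, which were counted above with complexes III and V, were below 1 FPKM on average and were not tested.

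Some genes of this set start near the start of a gene on the other strand. The share of such genes in the whole table was not counted. For 17 of the 94, a gene of the table starts on the opposite strand within 1000 bases upstream, or overlaps the start by up to 100 bases, and in 13 of these pairs both genes were tested. The changes had 1 sign in 11 pairs and opposite signs in 2, SDHD with TIMM8B and NDUFB5 with MRPL47. Many of these changes were near 0, with 5 partners within 0.05, and the count was 7 and 6 with median-of-ratios scaling and 8 and 5 without shC8 1. The partners named here were chosen after their values were seen. WDR4, a tRNA methylation gene beside NDUFV3, was higher, with 6.53 ± 0.0722 FPKM in shC8 and 4.53 ± 0.377 FPKM in shCTR (SD, n = 3 each; change 0.45, adjusted p = 0.0134, and 0.0538 without shC8 3), while NDUFV3 changed by 0.03. EEF1B2 beside NDUFS1 changed by -0.33 (adjusted p = 0.0754; 0.0173 with the block). MRPL36 beside NDUFS6 changed by -0.04 (adjusted p = 0.868), and ZMAT5 beside UQCR10 by 0.21 (adjusted p = 0.228).

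Promoter windows, 250 bases before to 50 after each RefSeq start, were given for 76 of the 94 genes (93 windows) and searched on both strands. The letters GCGCANG, from the NRF1 motif, were in 37 windows (39.8%), beside 21% of all 35116 windows. The ETS letters CCGGAAG were in 23 (24.7%), beside 10.3% of all, and AAGATGG, from the motif of YY1, was in 19 (20.4%), beside 5.84% of all. A window can count for several motifs, and a gene with several windows can count more than once. The windows compared were not matched for base content or expression level. The windows of NDUFAF2, NDUFA2 and NDUFA4 held none of these letters, and the NRF1 letters were in 2 of the 3 windows of ATP5G2. The genes are short, with a median transcript length of 750 bases among the 83, beside 1663 for all tested genes. Tested genes under 800 bases had a median change of 0.04, and the 50 members under 800 bases had 0.08.

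The word GGACAAA in the 3' UTR was searched because earlier results on these data had it among genes that fell in shC8. Of the 83 genes 8 held it (9.64%), beside 13.9% of 10895 tested genes with an annotated 3' UTR, without matching for UTR length. Neither NDUFAF2 nor ATP5G2 did, and of the 8 genes lower with the block SDHD alone held it, at base 377 of its 3' UTR, on chromosome 11. The site is shown with 11 bases on each side and the word in capitals.
SDHD site: ttgggaataatGGACAAAgggaaatactc

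Genes that serve the same complexes from outside the symbol rule were counted in lists. Of all tested genes, 4.94% were lower and 7.14% higher, and with the block 10.6% and 16.1%. Without shC8 1 these shares were 5.74% and 6.14%. Of 26 tested genes listed as assembly factors of complexes II to V, none was called, with 2 unadjusted p under 0.05, both higher. Their median change was 0.04. With the block 1 was higher, ATPIF1, an inhibitor of the ATP synthase rather than an assembly factor (adjusted p = 0.0804; 0.0291 with the block). TMEM70 was counted in this list and among the further complex I factors. Cytochrome c (CYCS) had 81.1 ± 5.997 FPKM in shC8 and 81.2 ± 5.78 FPKM in shCTR (SD, n = 3 each; change 0.00, adjusted p = 0.990). Of 6 tested carriers and outer membrane genes none was called by limma, and none had an unadjusted p under 0.05. Of 21 tested import genes, TIMM8B alone was called, with 2 lower and none higher without shC8 1, and 2 higher and 2 lower with the block.

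The tricarboxylic acid cycle list also held PDHA1, PDHB, PDHX and DLAT, genes of the pyruvate dehydrogenase complex, which is not part of the cycle itself. It had 2 lower genes among 18 (11.1%), PDHB among them, beside 4.94% of all tested genes. DLD, the lipoamide dehydrogenase shared by several mitochondrial dehydrogenases, had 43.6 ± 1.42 FPKM in shC8 and 66.3 ± 2.97 FPKM in shCTR (change -0.59, SE 0.0619, adjusted p = 0.00275), and the call held in all 14 alternatives. PDHB, a subunit of pyruvate dehydrogenase, had 62.4 ± 5.54 FPKM in shC8 and 78.9 ± 3.39 FPKM in shCTR (change -0.34, SE 0.0791, adjusted p = 0.0354). The PDHB call held without shC8 1 and ended without any one of the other 5 libraries (adjusted p up to 0.108). The median change of the 18 was 0.00, and with the block 1 was higher and 4 were lower.

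Among 16 tested regulators of mitochondrial biogenesis, 3 were lower (18.8%) and none higher, beside 4.94% lower and 7.14% higher of all tested genes. The median change of the 16 was 0.08. With the block 3 were lower and 1 higher. The higher one was GABPA, a subunit of the ETS factor GABP, not called without the block. It had 23.8 ± 0.293 FPKM in shC8 and 20.9 ± 0.427 FPKM in shCTR (change 0.17, SE 0.0553, adjusted p = 0.0813; 0.0474 with the block). SSBP1, which binds single-stranded mitochondrial DNA, had 194 ± 21.9 FPKM in shC8 and 273 ± 16.4 FPKM in shCTR (change -0.49, SE 0.0946, adjusted p = 0.0192). TFAM, which packages and transcribes mitochondrial DNA, had 32.8 ± 2.06 FPKM in shC8 and 40.1 ± 1.56 FPKM in shCTR (change -0.28, SE 0.0680, adjusted p = 0.0377). GABPB1, another subunit of GABP, went the opposite way to GABPA, with 20.6 ± 1.04 FPKM in shC8 and 25 ± 1.37 FPKM in shCTR (change -0.27, SE 0.0685, adjusted p = 0.0467). The calls of SSBP1, TFAM and GABPB1 held without shC8 1. The SSBP1 call also held without shCTR 2 and ended without any of the other 4 libraries, and those of TFAM and GABPB1 ended without any of the other 5 (adjusted p up to 0.148).

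Of 76 mitochondrial ribosomal protein genes, 5 were lower (6.58%) and none higher, beside 4.94% lower of all tested genes. The median change of the 76 was -0.07. MRPL37 had 116 ± 9.81 FPKM in shC8 and 174 ± 11.6 FPKM in shCTR (change -0.59, SE 0.0846, adjusted p = 0.00792) and was called in all 14 alternatives. MRPL50, MRPL3 and MRPS31 had changes of -0.55, -0.37 and -0.34. MRPL50 lost its call without shC8 2 or shC8 3, and MRPL3 and MRPS31 without any library but shC8 1. Without shC8 1, 14 of the 76 were lower, and with the block 9 were lower and 2 higher. Of all tested genes, 5.74% were lower without shC8 1, and with the block 10.6% were lower and 16.1% higher. Of the 77 cytosolic ribosomal protein genes, RPL4 alone was called (change -0.41, adjusted p = 0.0491), a call that held without shC8 1 and ended without any other library, and 4 were lower without shC8 1. With the block 10 of the 77 were lower and none higher. Of the genes named from these lists, GABPB1, MRPS31, PDHB, RPL4, TFAM and TIMM8B were not called with no filter on low values. GABPB1, RPL4 and TFAM were not called with the column number term, and GABPB1 and TIMM8B were not called with no mean trend. TIMM8B was also not called with quantile normalization or median-of-ratios scaling.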

How the data were processed

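RNA of 6 U87 samples was measured after ribosomal depletion with a stranded total RNA kit, per the labels' protocols. The deposited values are FPKM per gene symbol and library. Per the submitters' processing notes, TopHat, Cufflinks and Cuffdiff were used with build hg38. The sources used here give no versions, annotation, strand setting or scaling between libraries. FPKM hold no counts, so no count model and no counting interval is given. With a library total as divisor, abundant genes that change shift the rest. A value of 0 can be a failed estimate.

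Genes that averaged 1 FPKM or more were tested on log2(FPKM + 1) with limma 3.58.1 (R 4.3.3), with a mean trend, two-sided, adjusted over all 11598 genes. Ratios compare mean FPKM. Python 3.11.15 with pandas 2.3.3 and matplotlib 3.10.9 did the rest. On simulated data for shC8 against shCTR (11537 genes, 200 changed), 61% of changes of 0.5 and 91% of changes of 1 were recovered, and 1.3% of calls were false. In the data 1401 of the 11598 genes were called, a larger share than the simulation changed, so these percentages may not hold here. Recovery of changes smaller than 0.5 is not given. Gene positions, neighbours, pseudogenes and 3' UTRs are from GENCODE 29 (GRCh38), which is the assembly called hg38. All 94 genes were matched in RefSeq and in GENCODE, and 22 have newer symbols.

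Some results on single genes are not reported here. The members and lists were chosen with earlier results of these data known. Members given in full were called ones, core members fixed by name (NDUFS1, NDUFV1, the SDH genes, UQCRC1, UQCRFS1, COX4I1, COX5A, COX5B, ATP5A1, ATP5B) and tissue isoform pairs. Of other lists, up to 4 called genes with the largest changes are named. Other members named with values, GABPA, ATPIF1, ERCC8 and the other head-to-head partners were chosen after their values were seen. Same-numbered libraries deviated together, so the numbers were taken as pairs. No label states this pairing. Numbers in the deposited column names fall in a lower range (shC8 1, shCTR 1 and shCTR 3) and an upper range (shC8 2, shC8 3 and shCTR 2), and the sources used here do not say what these mean.

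The 14 alternatives were the replicate block, the column number range as a term, quantile normalization, median-of-ratios scaling, no filter, a filter at 5 FPKM, a pseudocount of 0.1, no mean trend, and 6 fits without 1 library each.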

Additional observations from a re-analysis of the deposited data

How the results depend on the processing

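Median changes of the 83 genes and of each complex moved in all 14 alternatives by less than the pooled SD of the library medians within groups. With 3 libraries a group, leaving 1 out can hardly move a median change past that SD, so this does not show stability. Several of these median changes turned direction. That of the 83 lay between -0.03 and 0.12, that of complex I between -0.04 and 0.10, of its assembly factors between -0.15 and 0.05 and of complex V between -0.05 and 0.06. Those of complexes II, III and IV kept their direction (-0.19 to -0.01, 0.03 to 0.15 and 0.01 to 0.15). The CASP8 fall was called in all 14. The count of genes higher in shC8, 3 in the fit reported, was 6 with quantile normalization, 10 with the replicate block, 5 with a term for the column number range, and 0 to 2 with a library left out. The 0 came without shCTR 1, where limma gave 10 higher genes at an unadjusted p under 0.05. The count of lower genes, 2, was 5 with median-of-ratios scaling, 8 with the replicate block and 1 to 11 with a library left out. Of all genes, 3086 were called with the replicate block, against 1401 without it, and 522 to 1376 with a library left out. Up to 13 of the 83 changes turned direction in a single alternative, none of them called in either fit. Among genes given in full, ATP5B was -0.0195 and NDUFV1 -0.0249 with median-of-ratios scaling, and COX5A was 0.0129 and SDHB 0.0933 with the column number term. With a library left out, ATP5B lay between -0.0537 and 0.135, NDUFV1 between -0.0638 and 0.0924, COX5A between -0.114 and 0.0015, SDHB between -0.179 and 0.111 and UQCRC1 between -0.0464 and 0.144. The cause of these differences was not tested. The 3 libraries a group limit the precision, depth is unknown, and fits without a library leave 2 samples in a group.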
